A study of Mus musculus with 6 samples.

Results

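The mesenchymal transition transcription factors are 10 genes, Snai1, Snai2, Twist1, Twist2, Zeb1, Zeb2, Prrx1, Prrx2, Foxc2 and Tcf4, chosen by symbol. A gene was measured where a feature of the array carried its symbol and no other. This held for 9 of the 10, each with 1 feature, among 30142 genes in all. The feature of Zeb2 also carries the symbol of the microRNA gene Mir5129, so Zeb2 is not reported. The data are 6 Affymetrix MTA 1.0 arrays. Each holds RNA of cells that the labels call cancer stem cells, taken by sorting out of squamous cell carcinomas of the skin. Of these, 3 were from Sfrp1_KO mice (Sfrp1-/-, without the secreted Wnt antagonist Sfrp1) and 3 from WT mice. Mice of both genotypes had received the mutagen DMBA on 3 days, which the labels give as PD-23, 25 and 27. The tumour promoter TPA then followed 2 times a week up to 30 to 40 weeks. The gate, the same in both genotypes, kept lineage-negative cells with Epcam, CD34 and α6 integrin on their surface. The sources used here give no strain, sex or pooling of animals. They also do not state that each sample is a different animal, so a p-value here reflects sample-to-sample spread that may be technical.

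In the epithelial-mesenchymal transition, epithelial cells give up adherens junctions, tight junctions and desmosomes and take on the cytoskeleton and matrix of mesenchymal cells. Snail and ZEB proteins are zinc finger repressors that bind E-boxes in the promoters of epithelial genes such as Cdh1. Twist proteins and Tcf4 are basic helix-loop-helix (bHLH) factors that bind E-boxes as dimers, Prrx1 and Prrx2 are paired-related homeobox proteins of mesenchyme, and Foxc2 is a forkhead factor. In skin, Snai2 is also known from normal basal keratinocytes, while Prrx1, Twist2 and Zeb1 are also known from dermal fibroblasts.

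Zeb1 and Zeb2 transcripts are well known targets of the microRNAs of the miR-200 family. The 4 members of that family with a feature of their own symbol are shown because they fall into 2 seed groups, miR-200b with miR-200c and miR-200a with miR-141. Capitals mark the seed, bases 2 to 8 from the 5′ end, in the RefSeq sequences (GRCm38.p6).
mmu-miR-200b-3p: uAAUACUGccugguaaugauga
mmu-miR-200c-3p: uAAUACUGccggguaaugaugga
mmu-miR-200a-3p: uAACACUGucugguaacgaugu
mmu-miR-141-3p: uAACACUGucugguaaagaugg

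Values are deposited log2 signals. The largest of them is 19.93, above the 16 log2 units that a 16-bit scanner can give, so an unstated step altered the scale, and differences are not read as folds. The background level of an array is the highest of its 23 background probe sets, between 5.04 and 5.10 on the Sfrp1_KO arrays and between 4.82 and 5.09 on the WT arrays. Sfrp1, the targeted gene, averaged 5.12 ± 0.03 in Sfrp1_KO and 5.75 ± 0.30 in WT (SD, n = 3 each), lower on every Sfrp1_KO array but not called (limma adjusted p = 0.0969). Which exons of Sfrp1 the deletion removes is not stated in the labels. Of the positive sort markers, Epcam was lower in Sfrp1_KO, at 5.03 ± 0.17 against 7.59 ± 1.03 in WT (SD, n = 3 each, limma adjusted p = 0.0455), and 2 of the 3 Sfrp1_KO arrays lay under the background level for it. That call ended without any 1 of the Sfrp1_KO arrays or without WT replicate 1 (limma adjusted p up to 0.184). Itga6, the α6 integrin gene, fell by 1.89 (limma adjusted p = 0.0292), and Cd34 differed by 1.57 and was not called (limma adjusted p = 0.0714), but was called higher without Sfrp1_KO replicate 3 (limma adjusted p = 0.00664). The call of Itga6 ended without any 1 of the Sfrp1_KO arrays or without WT replicate 2.

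Of the 9 factors measured, 6 rose in Sfrp1_KO (Prrx1, Tcf4, Twist1, Zeb1, Snai1 and Prrx2), none fell and 3 did not pass the test (Twist2, Foxc2 and Snai2). The rise of Snai1 is between signals under the background level on every array. A gene was called at a Benjamini-Hochberg adjusted p under 0.05 over all 30142 genes in limma, and by that rule 3.28% of all genes were called, 1.83% higher in Sfrp1_KO and 1.45% lower. The median difference of the 9 factors, Sfrp1_KO minus WT, was 0.94, beside a median of -0.01 over all genes. At an unadjusted p under 0.05 in limma 8 of the 9 were higher and 1, Snai2, was lower, and with unmoderated variances 1 factor was called higher and 0 lower. Many genes pass the unadjusted threshold: Foxc2, with an unadjusted p of 0.0136 in limma, ranked 2392 of 30142. The share of all genes that pass it is not given here, so unadjusted counts, here and for the lists below, are descriptions only. The Sfrp1_KO and WT arrays did not overlap for any of the 9 factors, 8 of them higher in Sfrp1_KO. Of all genes 19.9% were apart in this way, and 9.1% of all genes were apart with Sfrp1_KO higher. The count of rising factors was 3 without Sfrp1_KO replicate 1, Sfrp1_KO replicate 2, WT replicate 1 or WT replicate 2, and Prrx1, Zeb1 and Tcf4 were called with any 1 array left out.

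**Figure D1:**
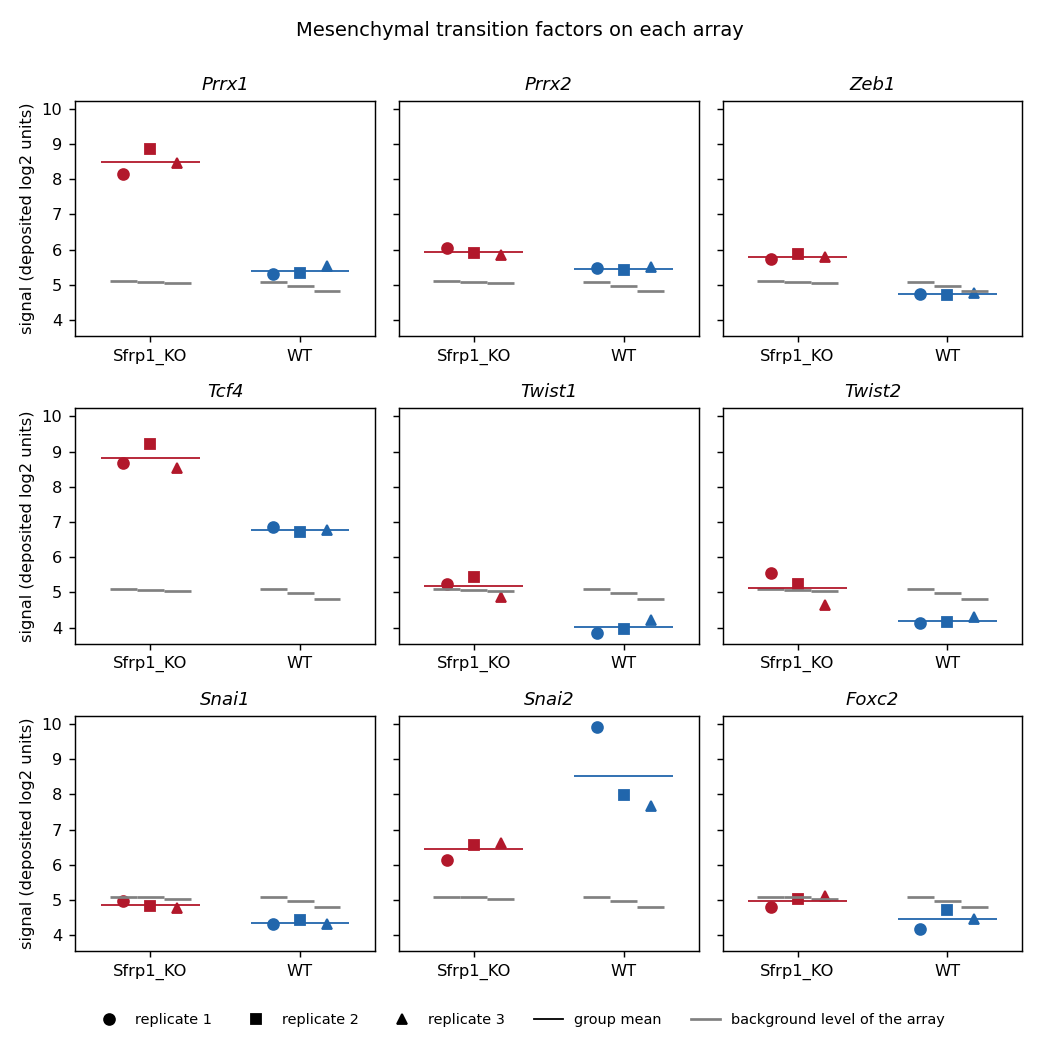
Signal of each measured factor on each array in deposited log2 units, with Sfrp1_KO at the left (red) and WT at the right (blue) of each panel; marker shapes are replicates, coloured lines group means and grey dashes the background level of each array. Prrx1 and Tcf4 stood far above the grey dashes in Sfrp1_KO, Snai1 lay under them on all 6 arrays, and Snai2 was highest on WT replicate 1 at 9.93.

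Both homeobox genes rose, Prrx1 by the larger amount. Prrx1 (gene ID 18933, chromosome 1), a homeobox factor of limb and craniofacial mesenchyme, stood at 8.14, 8.87 and 8.45 on the Sfrp1_KO arrays, against 5.31, 5.34 and 5.54 on the WT arrays. All WT values lay just above the background level, and every Sfrp1_KO value was more than 2 units above every WT value. The difference was 3.09 (SE 0.19, 95% CI 2.64 to 3.54, limma adjusted p = 0.00173), and it ran from 2.90 to 3.27 with 1 array left out. Its paralog Prrx2 (gene ID 20204, chromosome 2) stood at 6.04, 5.90 and 5.85 in Sfrp1_KO, against 5.47, 5.41 and 5.50 in WT. Prrx2 was above the background level on every array, and its groups were apart by a narrow margin. It rose by 0.47 (SE 0.08, 95% CI 0.27 to 0.67, limma adjusted p = 0.0387). The call of Prrx2 ended without any 1 array (limma adjusted p from 0.0704 to 0.146) and with eBayes trend and robust options (0.0596).

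The change in Prrx1 was set against that in Prrx2 array by array. Prrx1 minus Prrx2 was 2.11, 2.97 and 2.60 on the Sfrp1_KO arrays, against -0.15, -0.07 and 0.04 on the WT arrays. This means that the genotype difference of Prrx1 exceeded that of Prrx2 by 2.62. A two-sided exact permutation test on these 6 differences returned p = 0.1, which is the minimum for 3 arrays against 3, and 0.15 after adjustment over the 3 paralog pairs compared. The other pairs, Twist1 with Twist2 and Snai1 with Snai2, are not read this way, since both Twist genes lay under background on all WT arrays and Snai1 on all 6. Over the 6 arrays the genes most like Prrx1 by Pearson correlation were Timp3, a metalloproteinase inhibitor (r = 0.999), Ipmk, an inositol phosphate kinase (r = 0.998), and Sema3a, a secreted semaphorin (r = 0.998). These correlations join 2 genotype groups and are given as a description.

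Zeb1 (gene ID 21417, chromosome 18), the zinc finger and homeobox repressor of Cdh1, stood at 5.72, 5.87 and 5.79 in Sfrp1_KO, against 4.75, 4.71 and 4.78 in WT. All 3 Sfrp1_KO arrays were above the background level and all 3 WT arrays were under it. Zeb1 therefore rose by at least 0.84, where the WT level is taken as the background level. The measured difference was 1.05 (SE 0.08, 95% CI 0.86 to 1.23, limma adjusted p = 0.00275), with leave-one-out values from 1.01 to 1.08. Zeb1 was the only factor called by the test without moderation (adjusted p = 0.0370). For the miR-200 family shown above, which targets Zeb1 and Zeb2, the array features are those of the microRNA genes, and levels of the mature microRNAs were not measured. Mir200c was above the background level on every array, at 6.09, 5.61 and 5.98 in Sfrp1_KO and at 5.64, 5.42 and 6.05 in WT. Its groups overlapped, with a difference of 0.19 (SE 0.20, limma adjusted p = 0.80). Mir200a and Mir200b were under the background level on all 6 arrays, and Mir141 was above it on 1 Sfrp1_KO array and 2 WT arrays. The list of 6 microRNA genes measured also holds Mir34a and Mir203, which are not of the miR-200 family. None of the 6 was called in limma or without moderation. Mir203, under the background level on all 6 arrays, was higher at an unadjusted p under 0.05 in limma.

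Among the bHLH factors, Tcf4 (gene ID 21413, chromosome 18) had the largest difference. It encodes E2-2, a ubiquitous E-protein that dimerises with Twist and other bHLH proteins, and is not Tcf7l2, the Wnt effector also known as TCF4. Tcf4 stood at 8.68, 9.22 and 8.52 in Sfrp1_KO, against 6.86, 6.72 and 6.77 in WT. Every array was well above the background level, and the spread among WT arrays was small beside the gap between genotypes. The difference was 2.02 (SE 0.18, 95% CI 1.58 to 2.47, limma adjusted p = 0.00522) and ran from 1.82 to 2.17 with 1 array left out. Of 10 further bHLH partners and Id inhibitors, Tcf12, the E-protein HEB, rose by 1.88 (SE 0.19, limma adjusted p = 0.00696), and it was called with any 1 array left out. None of the 10 fell, and 2 were higher and 0 lower at an unadjusted p under 0.05 in limma, and no call was made without moderation. Id2, an Id inhibitor gene named after its values were seen, was called lower without WT replicate 1. The other E-protein gene, Tcf3, differed by 0.28 and the Id inhibitor gene Id3 by 0.49, neither of them called (limma adjusted p = 0.361 and 0.0798).

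Twist1 (gene ID 22160, chromosome 12), a bHLH factor of cranial mesoderm and neural crest, stood at 5.24, 5.43 and 4.86 in Sfrp1_KO, against 3.85, 3.96 and 4.22 in WT. It was above the background level on Sfrp1_KO replicates 1 and 2 only. With the WT level taken as the background level, Twist1 rose by 0.22. This is not a strict lower bound, since Sfrp1_KO replicate 3 entered with a signal under background. The measured difference was 1.16 (SE 0.17, 95% CI 0.75 to 1.58, limma adjusted p = 0.0215). Its call ended without Sfrp1_KO replicate 1 or 2 or without WT replicate 1 or 2 (limma adjusted p from 0.0586 to 0.0907). Twist2 (gene ID 13345, chromosome 1), known in dermis as Dermo1, stood at 5.54, 5.23 and 4.63 in Sfrp1_KO, against 4.12, 4.16 and 4.31 in WT. It too was above the background level on Sfrp1_KO replicates 1 and 2 only, and the groups were apart. The difference of 0.94 (SE 0.23, 95% CI 0.40 to 1.48) did not pass (limma adjusted p = 0.0970). Without Sfrp1_KO replicate 3 it was 1.19 and passed (limma adjusted p = 0.0179). Weighting the arrays by their quality gave 1.09, which passed as well (0.0489 in limma).

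The Snail pair had differences of opposite sign. Snai1 (gene ID 20613, chromosome 2), the repressor first linked to loss of E-cadherin, stood at 4.99, 4.83 and 4.78 in Sfrp1_KO, against 4.33, 4.44 and 4.31 in WT. All 6 values were under the background level of their arrays, so the called rise of 0.51 (SE 0.09, limma adjusted p = 0.0394) is between signals not above background, and its call ended without any 1 array (limma adjusted p from 0.0691 to 0.141). Snai2 (gene ID 20583, chromosome 16), the Slug repressor, was above background on every array, at 6.14, 6.57 and 6.63 in Sfrp1_KO, against 9.93, 7.98 and 7.68 in WT. The 2 genotypes were apart, with Sfrp1_KO lower, and WT replicate 1 stood almost 2 units above the other WT arrays. The difference was -2.08 (SE 0.57, 95% CI -3.46 to -0.70) and did not pass (limma adjusted p = 0.140). Without WT replicate 1 it was -1.38 and passed (limma adjusted p = 0.0300).

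Foxc2 (gene ID 14234, chromosome 8), a forkhead factor of mesoderm and lymphatic vessels, stood at 4.81, 5.03 and 5.12 in Sfrp1_KO, against 4.17, 4.72 and 4.47 in WT. Only Sfrp1_KO replicate 3 was above the background level. The difference of 0.54 (SE 0.16, 95% CI 0.15 to 0.92) did not pass (limma adjusted p = 0.172), nor did it without any 1 array.

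**Figure D2:**
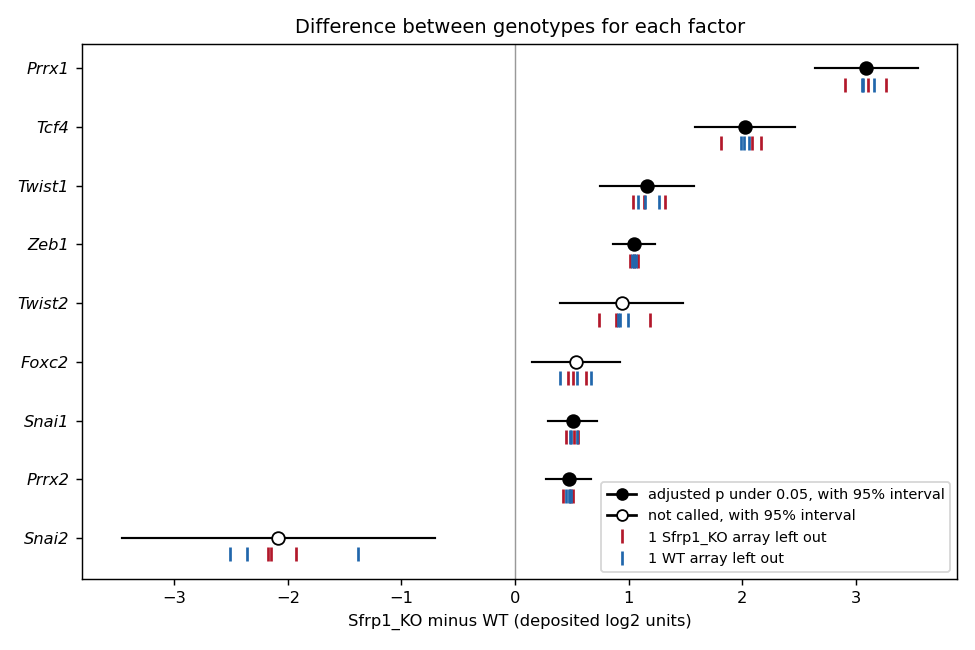
Difference of each factor (Sfrp1_KO minus WT, log2 units as deposited) and its 95% interval in limma; filled circles are called factors, and ticks under each are the differences with 1 Sfrp1_KO array (red) or 1 WT array (blue) left out. All ticks kept the sign of their factor, and the widest span was that of Snai2, from -2.51 to -1.38.

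The start regions of 3 factors called higher, Snai1 only between signals under background, are shown. Snail, ZEB and Twist proteins act through E-boxes, and Sfrp1 acts on Wnt signalling. They hold the 250 bases before and the 50 bases from the transcription start, from RefSeq on GRCm38.p6. Capitals mark the E-box CACCTG, read CAGGTG on the other strand, that Snail and ZEB proteins favour.
Prrx1, chr1:163313601-163313900, minus strand: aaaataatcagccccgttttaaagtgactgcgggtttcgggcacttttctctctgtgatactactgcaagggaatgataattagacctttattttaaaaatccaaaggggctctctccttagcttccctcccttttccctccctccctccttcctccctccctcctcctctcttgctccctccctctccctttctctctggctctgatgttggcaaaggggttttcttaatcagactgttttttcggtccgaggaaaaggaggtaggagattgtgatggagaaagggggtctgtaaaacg
Twist1, chr12:33957421-33957720, plus strand: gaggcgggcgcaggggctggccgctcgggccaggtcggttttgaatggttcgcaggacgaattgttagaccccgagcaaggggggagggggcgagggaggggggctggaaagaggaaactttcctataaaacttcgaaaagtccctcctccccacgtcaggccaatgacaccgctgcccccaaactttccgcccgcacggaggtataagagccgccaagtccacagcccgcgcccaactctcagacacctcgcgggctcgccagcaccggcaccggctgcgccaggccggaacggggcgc
Snai1, chr2:167537945-167538244, plus strand: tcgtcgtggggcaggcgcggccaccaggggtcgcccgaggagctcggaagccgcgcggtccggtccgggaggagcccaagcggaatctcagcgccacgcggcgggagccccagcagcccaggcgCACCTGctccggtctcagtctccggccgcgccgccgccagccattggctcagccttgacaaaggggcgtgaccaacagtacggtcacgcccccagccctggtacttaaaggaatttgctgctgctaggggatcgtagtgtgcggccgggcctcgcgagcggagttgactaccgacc
Such a region was at hand for 5 of the measured factors, Snai1, Twist1, Twist2, Prrx1 and Prrx2. The E-box was found in that of Snai1 only, starting 126 bases before the transcription start. Over all genes with such a region 22.6% hold it in at least 1. The general E-box CANNTG, which includes CACCTG, was likewise found among the 5 in Snai1 only, where 75.0% of all genes hold it. The motif ATCAAAG of Tcf/Lef factors, searched on both strands, was in none of the 5 and in 4.29% of all genes.

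The next question was how the genes on which these factors are known to act behaved in the same arrays. Of 30 epithelial genes reported to be repressed by Snail, ZEB or Twist proteins, 16 fell, none rose and 14 did not pass, with a median difference of -0.99. Of the 30, 5 were under the background level on every array. At an unadjusted p under 0.05 in limma 20 were lower and 1 was higher, and 2 were lower and 0 higher without moderation. Dsp, which encodes the desmosomal protein desmoplakin, differed by -5.84 (SE 0.27), Cdh1, the E-cadherin gene, by -4.38 (SE 0.13) and Rab25, a GTPase of apical recycling, by -3.46 (SE 0.21). Their limma adjusted p-values were 0.000527, 0.000167 and 0.00181, and these calls held with any 1 array left out. Rab25 was above the background level on every array. Dsp and Cdh1 were not, so their differences include signals not above background. F11r, which encodes a tight junction adhesion molecule, fell by 3.92 (SE 0.66, limma adjusted p = 0.0316). The call of F11r ended without any 1 of the Sfrp1_KO arrays or without WT replicate 2 (limma adjusted p up to 0.139). The count of genes that fell was 9 without Sfrp1_KO replicate 1 or 2.

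A start region was at hand for 18 of these 30 genes, and 14 of the 18 hold the E-box CACCTG, beside 22.6% of all genes. The list was drawn up from genes with reported E-box repression, so this share is no independent evidence. Of the 14 genes with the motif 6 fell (Dsp, F11r, Rab25, Epcam, Patj and Crb3), and of the 4 without it 2 fell (Jup and Cldn1), genes named here for the motif count after their values were seen. Tjp3, Cldn3 and Muc1, also named after their values were seen, hold the motif and were under the background level on every array. A fall could not be seen in them, so these counts are not compared. The regions of Rab25, Dsp, Epcam and Crb3 are shown as examples, chosen after their values were seen, with each E-box in capitals.
Rab25, chr3:88548230-88548529, minus strand: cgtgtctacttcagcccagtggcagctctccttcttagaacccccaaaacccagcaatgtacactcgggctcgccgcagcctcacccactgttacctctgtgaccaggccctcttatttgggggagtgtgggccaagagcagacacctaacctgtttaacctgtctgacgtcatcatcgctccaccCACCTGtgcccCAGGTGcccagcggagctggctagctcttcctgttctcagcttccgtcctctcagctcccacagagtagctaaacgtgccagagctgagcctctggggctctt
Dsp, chr13:38151044-38151343, plus strand: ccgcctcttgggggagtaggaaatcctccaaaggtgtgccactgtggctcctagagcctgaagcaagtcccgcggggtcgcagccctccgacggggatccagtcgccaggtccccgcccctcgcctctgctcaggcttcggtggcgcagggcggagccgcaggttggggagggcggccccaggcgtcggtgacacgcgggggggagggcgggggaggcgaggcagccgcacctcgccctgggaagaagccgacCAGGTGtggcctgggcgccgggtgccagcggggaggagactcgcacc
Epcam, chr17:87635729-87636028, plus strand: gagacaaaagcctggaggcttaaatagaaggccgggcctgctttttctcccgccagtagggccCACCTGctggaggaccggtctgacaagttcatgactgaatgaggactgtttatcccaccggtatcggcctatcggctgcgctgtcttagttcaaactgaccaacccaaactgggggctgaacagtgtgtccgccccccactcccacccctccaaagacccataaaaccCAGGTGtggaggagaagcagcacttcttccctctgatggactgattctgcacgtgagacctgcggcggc
Crb3, chr17:57061951-57062250, plus strand: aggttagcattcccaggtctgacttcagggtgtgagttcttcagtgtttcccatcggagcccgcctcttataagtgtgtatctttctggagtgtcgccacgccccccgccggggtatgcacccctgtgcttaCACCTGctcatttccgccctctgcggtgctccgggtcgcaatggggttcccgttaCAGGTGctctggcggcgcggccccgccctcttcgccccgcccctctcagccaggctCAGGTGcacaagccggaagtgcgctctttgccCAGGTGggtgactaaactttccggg
Rab25 holds the motif 64 and 53 bases before its start, Epcam 187 and 19 bases before it, and Dsp at base 4 after it. In the Crb3 region shown, of a gene for an apical polarity protein, it stands 118, 63 and 7 bases before the start and at base 26 after it. Crb3 has a second annotated start, from which the same motifs lie 148, 93, 37 and 5 bases upstream. Crb3 fell by at least 0.08 (measured difference -0.54, SE 0.08, limma adjusted p = 0.0215), a call that was made without Sfrp1_KO replicate 3 and ended without any other single array (limma adjusted p up to 0.106).

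Of 25 mesenchymal genes reported to be raised by the factors, 7 rose, 1 fell and 17 did not pass, with a median difference of 0.34. In limma 9 were higher and 3 lower at an unadjusted p under 0.05, and 2 were called higher and 0 lower without moderation. The differences were 5.80 (SE 0.40) for Vim, the vimentin gene, 5.49 (SE 0.59) for Fn1, which encodes fibronectin, 5.09 (SE 0.18) for S100a4, a calcium-binding protein gene, and 3.72 (SE 0.38) for the PDGF receptor gene Pdgfrb. The adjusted p was lowest for S100a4 (0.000212 in limma) and highest for Fn1 (0.00841), and each was called with any 1 array left out. Fn1 and S100a4 were above the background level on every array. Vim and Pdgfrb were not, so their differences include signals not above background. Tnc, the tenascin C gene, named after its value was seen as the 1 gene that fell, fell by at least 3.09 (limma adjusted p = 0.0124), a call that ended without Sfrp1_KO replicate 1 or 2. Zeb1 is itself among the 7. Of the genes listed as raised by the factors, measured or not, 16 had a start region at hand, and those of 3 (Sparc, Lef1 and Spp1, which has no value here) hold the E-box CACCTG.

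**Figure D3:**
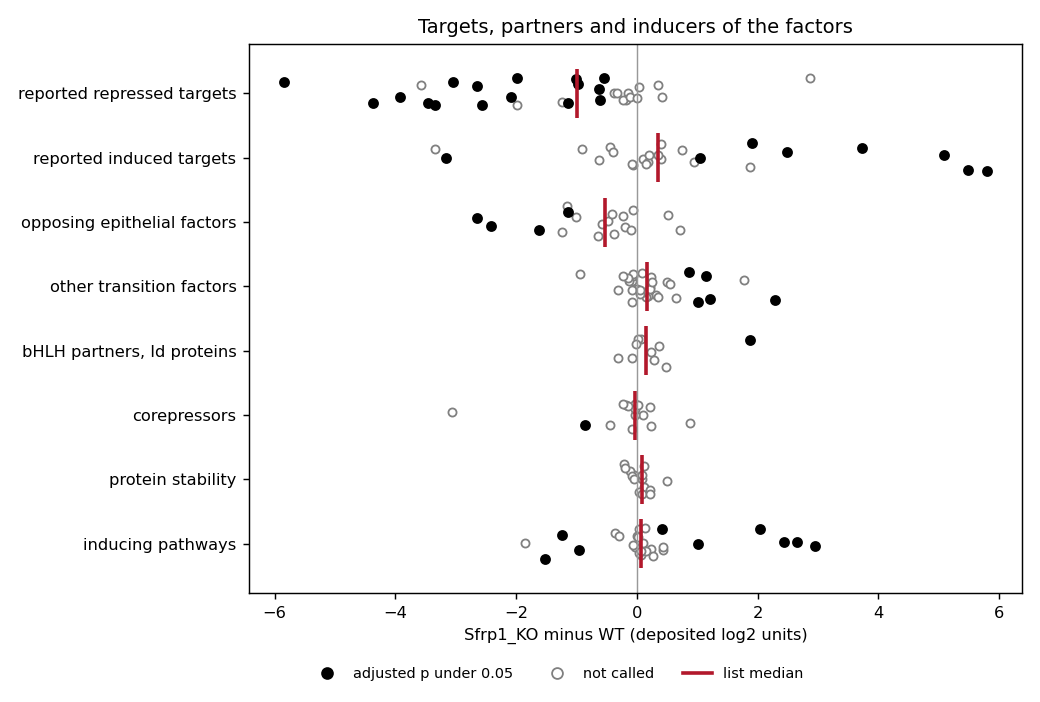
Difference, Sfrp1_KO minus WT in deposited log2 units, of each measured gene in 8 lists around the factors; filled circles are called genes, open circles genes not called, and red lines list medians, with vertical scatter only to separate points. Called genes among reported repressed targets and opposing epithelial factors all lie left of 0, and those among other transition factors all lie right of it.

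Factors that oppose the transition fell where they were called. Of 18 epithelial transcription and splicing factors 4 fell and none rose, with a median difference of -0.53, and at an unadjusted p under 0.05 in limma 12 were lower and 1 was higher. Without moderation 1 was lower and 0 higher. The splicing regulator genes Esrp1 and Esrp2 fell by at least 2.18 and at least 0.89 (limma adjusted p = 0.00183 and 0.00394), and both also stand among the repressed targets. Trp63, the p63 gene of stratified epithelia, stood at 4.91, 4.78 and 4.77 in Sfrp1_KO, all under background, against 7.29, 7.22 and 7.17 in WT. Trp63 fell by at least 2.16 (limma adjusted p = 0.000196), and Klf5, a Krüppel-like factor of basal epithelia, by at least 1.43 (limma adjusted p = 0.0197). The call of Klf5 ended without any 1 of the Sfrp1_KO arrays or without WT replicate 3 (limma adjusted p up to 0.0904), and the other 3 held.

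Of 32 other transcription factors linked to the transition 5 rose and none fell, with a median difference of 0.16. At an unadjusted p under 0.05 in limma 11 were higher and 2 lower, and 0 were called without moderation. Osr2, an odd-skipped zinc finger factor of mesenchyme, stood at 6.47, 6.35 and 6.90 in Sfrp1_KO, against 4.19, 4.38 and 4.32 in WT, all under background. It rose by at least 1.61 (limma adjusted p = 0.00205), and its relative Osr1 rose by at least 0.81 (limma adjusted p = 0.0184). Tead1, a DNA-binding partner of YAP, rose by 1.21 (SE 0.23, limma adjusted p = 0.0450) and the T-box factor gene Tbx3 by 1.01 (SE 0.10, limma adjusted p = 0.00613). The fifth gene, the ETS factor gene Etv5, rose by 0.86 (SE 0.13, limma adjusted p = 0.0205) and was named after its value was seen. Osr2 and Tbx3 were called with any 1 array left out. The calls of Osr1 and Etv5 ended without Sfrp1_KO replicate 1 or 2 or without WT replicate 1 or 3, and that of Tead1 without any array but Sfrp1_KO replicate 3. The count of 5 was 2 without Sfrp1_KO replicate 1, Sfrp1_KO replicate 2 or WT replicate 3, and 3 without WT replicate 1.

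Genes that act on the factors as proteins were called at about the share of all genes, 3.28%. Of 15 corepressors and chromatin enzymes recruited by Snail and ZEB proteins, Rcor1, which encodes the scaffold CoREST, fell by 0.86 (SE 0.11, limma adjusted p = 0.0133) and none rose, and the list median was -0.04. The call of Rcor1 ended without Sfrp1_KO replicate 1 (limma adjusted p = 0.0657). Ajuba, a LIM protein that binds the SNAG domain of Snail proteins, did not pass (difference -3.06, limma adjusted p = 0.0561), and did without WT replicate 1 (limma adjusted p = 0.00374). In this list 1 gene was higher and 4 were lower at an unadjusted p under 0.05 in limma, and without moderation none was called. Of 15 kinases, ubiquitin ligases and deubiquitinases of Snail and Twist proteins none was called in limma or without moderation, and 1 (Trim28) was higher at an unadjusted p under 0.05 in limma, with a list median of 0.09.

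Signals that induce the factors were divided. Of 27 ligands, receptors and signal mediators 6 rose and 3 fell, with a median difference of 0.07. At an unadjusted p under 0.05 in limma 8 were higher and 5 lower, and without moderation 0 were called in either direction. With each array centred on its median 5 rose and 1 fell. The FGF receptor gene Fgfr1 rose by 2.95 (SE 0.26), Tgfbr3, the betaglycan gene, by 2.65 (SE 0.20), the hepatocyte growth factor gene Hgf by 2.44 (SE 0.26) and Bmp2, a bone morphogenetic protein gene, by 2.05 (SE 0.21). Their limma adjusted p-values ran from 0.00292 to 0.00836, and all 4 were called with any 1 array left out. Fgfr1 and Tgfbr3 were above the background level on every array, and Hgf and Bmp2 were not. The 3 that fell, named after their values were seen, were Hif1a, the hypoxia factor gene (-1.53), Notch1 (-1.23) and the EGF receptor gene Egfr (-0.96), with limma adjusted p-values of 0.0355, 0.0440 and 0.0176. No array could be left out with all 3 calls kept, and 0 of them were made without Sfrp1_KO replicate 1.

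Most calls among cell type markers were those of basal keratinocytes, and most other marker lists had no call. Fewer cells of a type cannot be told apart from less RNA per cell in these bulk samples. Of 12 basal keratinocyte markers 8 fell and none rose, while 11 were lower and 1 was higher at an unadjusted p under 0.05 in limma. The count was 5 without any 1 of the Sfrp1_KO arrays, with the replicate block or with each array centred on its median. It was 3 without moderation. The list is not separate from those above: Cdh1, Cdh3 and Epcam are also repressed targets, Trp63 an opposing factor, and Epcam and Itga6 sort markers. The log2 signals of the 12 markers summed to between 69.4 and 70.4 in Sfrp1_KO and between 108 and 115 in WT. This split and that of Prrx1, Tcf4 and Zeb1 are both the split by genotype. Of all genes 9.1% were apart with Sfrp1_KO higher, so the split shows no link between these factors and the markers. Of 14 fibroblast markers Pdgfrb and Thy1 rose (Thy1 by 0.89, limma adjusted p = 0.0237) and Fbln1 fell by at least 0.78 (limma adjusted p = 0.00394). Fbln2, named after its values were seen, was called lower without WT replicate 1. The call of Thy1 was made without Sfrp1_KO replicate 3 and ended without any other single array. The summed signal of the 14 ran from 79.7 to 86.0 in Sfrp1_KO and from 72.6 to 84.6 in WT, which overlap, and Fap, Pi16 and Dpp4 were under the background level on all 6 arrays.

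The mean of the 14 fibroblast markers was 5.81, 6.14 and 5.69 on the Sfrp1_KO arrays, against 5.26, 5.19 and 6.04 on the WT arrays, highest in WT on replicate 3. Dcn, which encodes the matrix proteoglycan decorin and was named after its values were seen, stood at 10.18, 11.16 and 10.11 in Sfrp1_KO and at 6.54, 6.58 and 10.56 in WT. On WT replicate 3 Dcn was within the Sfrp1_KO range. Prrx1 was at 5.54 on that array, Tcf4 at 6.77 and Zeb1 at 4.78, each close to the other WT arrays. Without WT replicate 3 Prrx1, Tcf4 and Zeb1 were called as before, and Dcn, not called with all arrays, was called higher (limma adjusted p = 0.0105). Dcn is 1 marker, read on 1 array, and does not stand for the list. The median difference of the list was -0.01, with 2 markers called higher and 1 lower, so nothing is concluded from Dcn. The part of fibroblasts in the results for Prrx1, Tcf4 and Zeb1 was not tested.

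**Figure D4:**
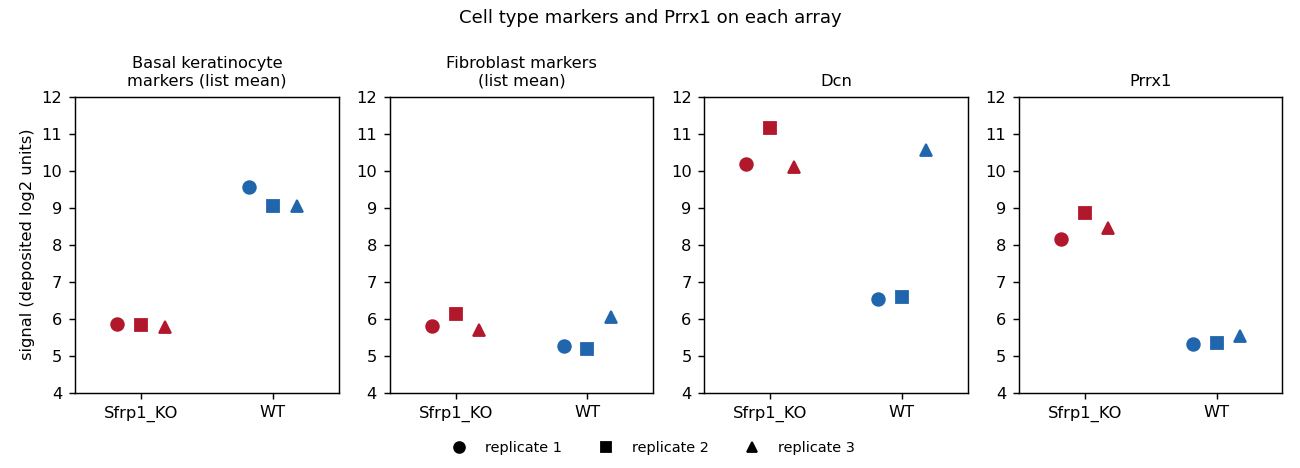
Mean signal of 12 basal keratinocyte markers and of 14 fibroblast markers, and the signals of Dcn and Prrx1, on each array in deposited log2 units, with Sfrp1_KO (red) left of WT (blue) and marker shapes for replicates. Dcn on WT replicate 3, at 10.56, is level with the Sfrp1_KO arrays, and Prrx1 on that array, at 5.54, is level with the other WT arrays. Dcn was picked after its values were seen and does not stand for the 14 fibroblast markers.

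Of 14 leukocyte and macrophage markers none was called in limma or without moderation, 5 were called higher without Sfrp1_KO replicate 3, and 9 were higher and 0 lower in Sfrp1_KO at an unadjusted p under 0.05 in limma. Their summed signal ran from 67.1 to 75.1 in Sfrp1_KO and from 63.4 to 64.4 in WT. It was lowest in Sfrp1_KO on replicate 3, the array on which Twist1, Twist2, Tcf4, Snai1 and Prrx2 were also at their lowest among the Sfrp1_KO arrays. Prrx1, Zeb1, Snai2 and Foxc2 were lowest in Sfrp1_KO on replicate 1, the array with the highest summed leukocyte signal. Ptprc, Cd3e, Itgam, Adgre1, Csf1r and Fcer1g lay under the background level on every array. The part of these markers in the results for Twist1 and Twist2 was not tested. Among 11 endothelial markers, 11 pericyte and smooth muscle markers, 7 melanocyte, 6 adipocyte and 6 skeletal muscle markers none was called in limma or without moderation. At an unadjusted p under 0.05 in limma 2 endothelial markers and 1 melanocyte marker were higher, and 3 pericyte and 2 adipocyte markers were lower. Without Sfrp1_KO replicate 3 limma called 2 endothelial markers higher, and without WT replicate 2 it called 1 pericyte marker lower. Of 6 Schwann cell markers Erbb3, an epithelial receptor as well, fell (limma adjusted p = 0.00539). Under the background level on every array were 7 endothelial, 6 pericyte, 6 melanocyte, 5 adipocyte and 5 skeletal muscle markers, so a missing call says little of them. Summed log2 signals of endothelial markers ran from 49.6 to 51.5 in Sfrp1_KO and from 47.6 to 52.5 in WT. Those of pericyte markers ran from 50.8 to 51.9 in Sfrp1_KO and from 53.8 to 54.9 in WT.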

How the data were processed

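RNA of 3 Sfrp1_KO and 3 WT samples of sorted cells was measured on 1 Affymetrix MTA 1.0 array each. The authors deposited 1 table of log2 signals, made by RMA. That method and the program, Affymetrix Expression Console, are named per the submitters' processing notes. Software version and annotation build: not given in the sources used here. Neither scanner files nor detection calls entered the work.

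The table has 72688 features, of which 6732 are controls. A platform annotation gave 1 symbol to 30604 features, several to 2146 and none to 33206. Symbols were updated by gene identifier through RefSeq (GRCm38.p6), where 22818 matched. The feature with the highest mean was used for the 355 genes with several, which left 30142 genes with no filter. Sequences are RefSeq's. Near-identical paralogs and overlapping genes can share probe signal.

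The comparison of Sfrp1_KO with WT used limma 3.58.1 (R 4.3.3), with lmFit followed by eBayes. P-values are two-sided, adjusted by Benjamini-Hochberg over all genes and called under 0.05. "At least" differences take, in the lower group, the higher of a dim array's signal and its background level. The higher group enters with its measured signals. The p printed with these differences belongs to the measured difference. The comparison of paralogs used an exact permutation test (scipy 1.17.1). The number of arrays limits the precision. The procedure was tested on simulated data with independent normal noise, where changes were put on genes of above-median signal. It recovered 31 of 50 changes of 1 unit and 49 of 50 of 2 units, and 12 of 192 calls were false. The members and the 19 other lists were chosen with earlier results of these data known. All factors are named, and of other lists up to 4 genes, called ones by size and otherwise those of smallest p; genes named outside this rule are marked as such. Alternatives were the replicate number as a block, filters, other normalizations, weights and variance options, and each array left out.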

Additional observations from a re-analysis of the deposited data

How the results depend on the processing

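No factor changed sign under any of the alternatives run, and of 134 single-factor values 106 kept their side of the threshold, 25 lost the call and 3 gained it. With the replicate block 3 factors were called, all higher, and 535 of all genes, against 6 and 989 without it. The block left 5 of the inducing signals called higher and 0 lower, against 6 and 3. Same-numbered samples had correlations of their deviations from the group means of 0.180, -0.122 and 0.171. Samples of unlike number had correlations from -0.332 to 0.253. With so few arrays per genotype these values cannot decide whether the numbers pair the samples. Without moderation 1 factor and 35 genes were called. Leaving out 1 array gave 3 to 5 factors called, 3 to 5 higher and 0 to 1 lower, and 291 to 753 of all genes, where fewer samples were fitted. The 1 factor lower was Snai2, without WT replicate 1. Leaving out dim features, averaging a gene's features, quantile normalization once more, median centring, array weights, trend and robust options and every feature gave 5 to 7 factors called and 773 to 1455 genes. With the 95th percentile of the background probe sets as the background level 8 factors were above it on all Sfrp1_KO arrays, against 5 with the highest probe set, and 4 on all WT arrays under both. Differences near 0 changed sign with 1 array left out for Mir141 (-0.25 to 0.039, positive at 0.0060 without Sfrp1_KO replicate 1 and 0.039 without WT replicate 3) and for Ptprc (-0.022 to 0.11, negative at -0.0029 without Sfrp1_KO replicate 1 and -0.022 without WT replicate 1). Signals near background limit what can be said of Snai1, Foxc2, Twist1 and Twist2.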

Other observations

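The genes below were picked after their values were seen, and Krt8 and Postn stood against the sign of their list's median. Krt8, a keratin of simple epithelia counted among the repressed targets, was at 11.75, 11.27 and 10.05 in Sfrp1_KO, against 8.98, 8.78 and 6.74 in WT. Every Sfrp1_KO array was above every WT array, but the difference of 2.86 did not pass (SE 0.69, limma adjusted p = 0.101). Its partner keratin gene Krt18 stood at 7.88, 7.54 and 7.20 in Sfrp1_KO, against 7.56, 7.45 and 6.38 in WT, which overlap.

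Postn, the periostin gene of activated stroma and among the induced targets, was at 6.02, 6.46 and 6.20 in Sfrp1_KO, against 8.27, 8.74 and 11.71 in WT. Its difference of -3.35 was not called (SE 0.86, limma adjusted p = 0.117), and was without WT replicate 3 (limma adjusted p = 0.0107). Sox4, a SOX factor whose difference had the sign of the median of its list of transition factors, was at 10.82, 10.13 and 10.61 in Sfrp1_KO, against 9.68, 8.72 and 7.83 in WT. Sox4 was not called (difference 1.78, SE 0.45, limma adjusted p = 0.117), and was without WT replicate 1 (limma adjusted p = 0.0357).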
